A study of Arabidopsis thaliana with 12 samples.

Results

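The salt response of iU1-52 was measured as the difference between seedlings of this line on MS plates with 200 mM NaCl and seedlings of the same line on MS plates. It rests on 6 of the 12 arrays of the series, which are 3 replicates with NaCl and 3 replicates without. The line carries a double-stranded RNA interference construct for *GlcNA.UT1* in the *glcna.ut2-1* background, and both groups of the comparison carry both changes. The other 6 arrays hold the wild type Col-0 in the same pair of conditions and show where the response of iU1-52 differed. They also entered the normalization and the fit. Each SE and p of an iU1-52 difference therefore rests on the spread within all 4 groups. All seedlings were 14 days old, and RNA of whole seedlings was labelled with Cy3 and hybridized to a single-colour Agilent Arabidopsis array. iU1-52 is 1 transgenic line, so that features of the line and of the interference cannot be told apart here. Seeds were sown directly on the plates, and therefore the salt treatment covered germination as well as growth. The stage that the seedlings had reached on NaCl plates at harvest is not in the labels.

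*GlcNA.UT1* and *GlcNA.UT2* encode N-acetylglucosamine-1-P uridylyltransferases, which make UDP-GlcNAc, the sugar donor for the first step of protein N-glycosylation at the endoplasmic reticulum (ER). Salt imposes osmotic stress and sodium toxicity on a plant, and much of the transcriptional response runs through abscisic acid (ABA). ABA binds PYR/PYL receptors, these inhibit clade A protein phosphatases 2C, and SnRK2 kinases are thereby freed to activate bZIP factors such as ABI5. The same hormone and the factors ABI3, ABI4 and ABI5 control seed maturation, and with high ABA or salt a germinating seedling can be held before greening with seed genes expressed.

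Signals are given on the log2 scale after quantile normalization, and differences are NaCl minus MS, so that 1 unit is a 2-fold change. A feature, which is a gene represented by its brightest probe or an unmatched probe, was called when its limma adjusted p was under 0.05 and the signals differed by at least 2-fold. On each of the 12 arrays, 75.43% to 79.44% of spots exceeded background clearly. The iU1-52 arrays with NaCl were less alike than those of the other groups. The median SD of a feature between replicates was 0.215 for iU1-52 in NaCl, 0.079 for iU1-52 in MS and 0.071 for Col-0 in NaCl. Replicate 1 of iU1-52 in NaCl stood apart, with a Pearson correlation across features of 0.978 with replicate 2 and 0.980 with replicate 3, while replicates 2 and 3 correlated at 0.994. On the second principal component of all 12 arrays, replicate 1 had a score of 14.7, replicates 2 and 3 had 59.1 and 59.8, and the Col-0 arrays with NaCl lay between -63.5 and -54. Replicate 1 therefore lay between the other replicates of its group and the Col-0 arrays with NaCl on that component. It was close there to the MS arrays of both lines, which had scores from 0.2 to 12. On the third component replicate 1 had 50.6, against -19.9 and -14.2 for replicates 2 and 3. Several results are also given without it. A group always had the same place on the slide, and effects of place and group cannot be told apart.

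The targeted genes were examined first. No probe was matched to *GlcNA.UT1* by its accession, so the gene was not analysed here. For *GlcNA.UT2*, the brighter probe gave 12.69, 12.25 and 12.18 on the iU1-52 arrays with NaCl and 11.70, 11.83 and 11.60 on those in MS. NaCl arrays were all above MS arrays, and the difference of 0.66 (SE 0.13, limma adjusted p = 0.00079) was under 2-fold. Its other probe gave 8.61, 8.26 and 8.01 in NaCl and 7.37, 7.31 and 7.31 in MS. Here too the groups lay apart, with a difference of 0.97 (SE 0.12) just under 2-fold. In Col-0 the salt difference was 0.19 for the brighter probe and 0.18 for the other one. The position of the probes relative to the insertion of *glcna.ut2-1* was not analysed here.

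Salt changed the expression of 6505 of 23680 features in iU1-52. Of these, 3102 were higher with NaCl (13.1% of all features) and 3403 were lower (14.4%). The median difference over all features was 0.03. Among the called features, 1340 of the higher ones and 1458 of the lower ones differed by at least 2 on the log2 scale. At a difference of at least 6 the balance was different, with 209 higher and 76 lower. The NaCl and MS arrays did not overlap for 6482 of the called features, against 69.0% of all features tested. Each slide carried 1 array of each group and bore the replicate number. On slides 1, 2 and 3 taken alone, 6495, 6504 and 6503 of the called features had the sign of the fit. These features were called from the same arrays, so that such agreement was largely fixed by the call. Without replicate 1 in NaCl, the calls were 3155 higher and 3466 lower.

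**Figure D1:**
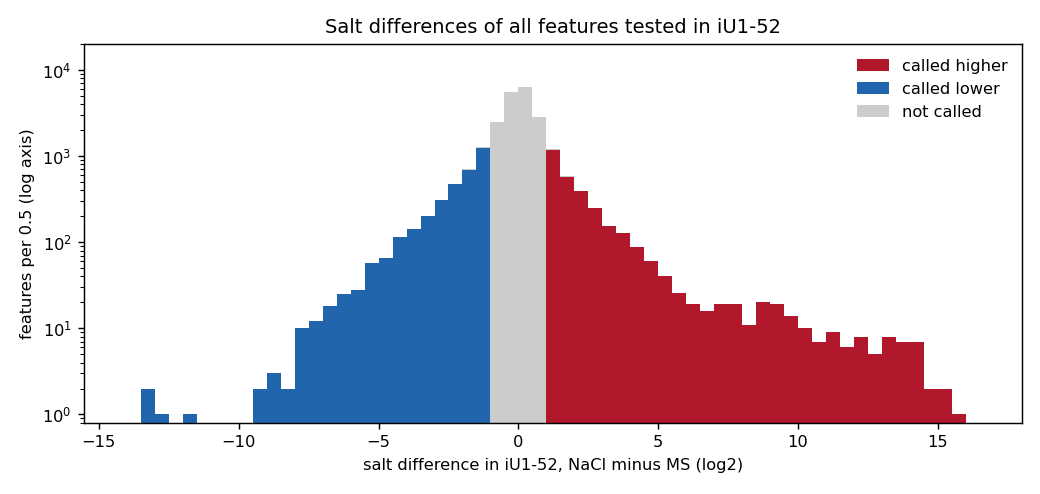
Salt difference in iU1-52 (x axis, NaCl minus MS, log2) of the 23680 features tested, counted in bins of 0.5 (y axis, log scale), with the 3102 features called higher in red, the 3403 called lower in blue and the others in grey. The right tail is longer than the left, with 209 features at 6 or above and 76 at -6 or below.

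Matched genes that were well above background on all 6 arrays were ranked by the size of the rise, and the first 10 included *GEA6* (*EM6*, AT2G40170), *ECP63* (AT2G36640) and AT3G02480, which are on the list of late embryogenesis abundant (LEA) genes, and *AtLEA4-1* (AT1G32560, 9.58), an LEA gene by its symbol. *GEA6* gave 16.97, 16.66 and 16.66 in NaCl and 5.10, 5.51 and 4.90 in MS. Every NaCl array was thus far above every MS array, and the difference was 11.59 (SE 0.21, limma adjusted p = 6.85e-11). *ECP63* gave 16.16, 16.88 and 17.09 in NaCl and 5.23, 4.89 and 4.97 in MS, a difference of 11.68 (SE 0.29). *HSD1* (AT5G50600), a steroleosin of seed oil bodies, averaged 15.80 ± 0.20 in NaCl and 5.32 ± 0.43 in MS (SD, n = 3 each). The gene has a near-identical copy, and signal shared with it was not tested. *MLS* (AT5G03860) encodes malate synthase of the glyoxylate cycle, which turns stored oil into sugar. It reached 17.25, 17.35 and 17.57 in NaCl, against 7.67, 7.90 and 7.59 in MS, a difference of 9.67 (SE 0.16). *TSPO*, a membrane protein of the secretory pathway that is induced by ABA, rose by 9.59 (SE 1.16). Its SD in iU1-52 was 0.09 in NaCl and 0.50 in MS. The SE also holds the spread of Col-0 in MS, where replicate 1 gave 11.85 and the other replicates 6.15 and 6.66. The other genes of this ranking were AT5G01300 (10.50), AT3G15280 (10.42) and AT1G72100 (10.17), for which the annotation gives no symbol.

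Some seed genes were not well above background on any MS array, so that only a lower bound of the rise could be given. The bound sets the mean of the NaCl arrays against the lowest signal that was well above background on the MS arrays, or the probe's own signal where that was higher. In total, 234 called features were well above background on 3 of 3 NaCl arrays and on 0 of 3 MS arrays. The largest bound was that of *CRU3* (AT4G28520), a cruciferin storage globulin, with 18.41, 18.57 and 18.79 in NaCl, which was at least 22722-fold higher than in MS. *EM1* (AT3G51810) was at least 11836-fold higher, *OLEO2* (AT5G40420), an oleosin of the oil body surface, at least 10909-fold, AT3G17520 at least 10286-fold and AT3G15670 at least 10160-fold. The opposite pattern held for 160 called features, which were well above background on 3 of 3 MS arrays and on 0 of 3 NaCl arrays. AT3G16670 was at least 2816-fold lower with NaCl, *PCC1* (AT3G22231), a pathogen and circadian controlled gene, at least 2778-fold lower and AT1G67865 at least 2639-fold lower. AT1G23110 followed with at least 226-fold and AT5G35480 with at least 161-fold.

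**Figure D2:**
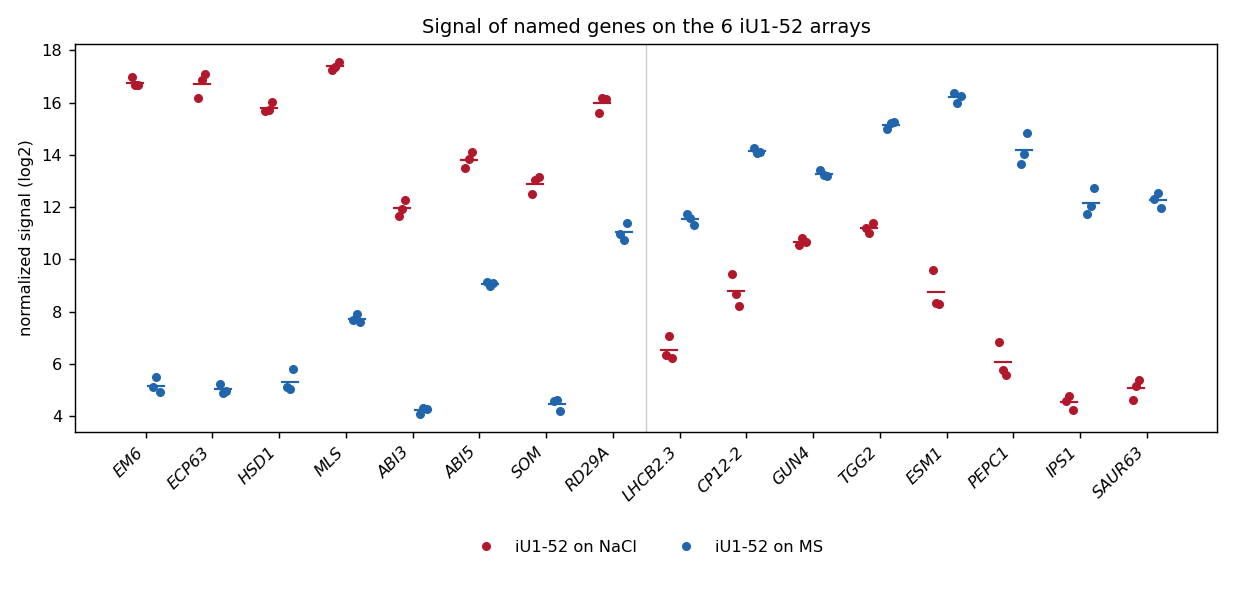
Normalized signal (y axis, log2) of 16 named genes (x axis) on the 3 iU1-52 arrays with NaCl (red, left of each pair) and the 3 in MS (blue, right). Points are arrays and bars are means, and the groups of no gene shown overlap. The 8 genes on the left were higher with NaCl and the 8 on the right were lower.

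All 17 genes tested for seed storage proteins and oil body proteins were called higher with salt, with a median difference of 12.28. The mean over this list was 15.60, 15.32 and 15.54 on the NaCl arrays and 3.64, 3.82 and 3.75 on the MS arrays. These genes also mark seed tissue, and because RNA of whole seedlings was measured, more seed-like cells and more RNA per cell cannot be told apart. Of the 17 genes, 11 were well above background on 0 of 3 MS arrays and 2 on 1 of 3, and with the 11 at their lower bounds the median was 10.58. *SESA5*, a 2S albumin, gave 16.90, 16.98 and 17.09 in NaCl and was at least 7489-fold higher than in MS. *OLEO4*, another oleosin gene, was measured on all 6 arrays and had the smallest rise of the list. It gave 14.22, 13.87 and 14.20 in NaCl and 7.38, 7.53 and 7.64 in MS, a difference of 6.58 (SE 0.25, limma adjusted p = 5.03e-09). *OLEO3* rose by 7.36 (SE 0.36).

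Among the LEA genes, which encode hydrophilic proteins of drying seeds, 22 of 23 tested were called higher and 1 was called lower, with a median difference of 11.59, which stayed the same with 10 genes at their lower bounds. The list mean was 15.07, 15.02 and 15.20 in NaCl and 4.82, 4.88 and 4.95 in MS. *LEA14*, which was already bright without salt, gave 16.39, 16.41 and 16.18 in NaCl and 13.63, 13.75 and 14.14 in MS, the smallest rise of the list (2.48, SE 0.13). *XERO1*, a dehydrin, rose by 9.5 (SE 0.68). *UNE15* went the other way. It gave 5.43, 4.80 and 4.55 in NaCl and 8.90, 8.71 and 9.09 in MS, and fell by 3.97 (SE 0.20, limma adjusted p = 3.21e-08).

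Of the regulators of the embryo program, 3 of 9 tested were called higher and 0 lower. *AGL67*, a MADS-box gene of the late embryo, gave 8.94, 8.84 and 8.95 in NaCl and was at least 27.7-fold higher than in MS, where no array was well above background. *NF-YB6* (*L1L*), a relative of *LEC1*, rose by 1.88 (SE 0.18), and its difference was 0.77, with no call, after normexp background correction. *FUS3*, a B3 domain factor of seed maturation, gave 6.04, 6.53 and 6.42 in NaCl and 5.31, 5.26 and 4.86 in MS. Its rise of 1.19 (SE 0.26, limma adjusted p = 0.00184) was the smallest of the 3 and was 0.46, again with no call, after that correction, which left 1 gene of the list called higher. The repressors of this program were not called, with differences of -0.17 for *VAL1*, -0.07 for *VAL2* and -0.13 for *PKL*. *LEC1*, *LEC2* and *DOG1* were not tested.

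Genes of ABA metabolism were called higher on both sides, synthesis and breakdown. Of 17 genes tested, 10 were called higher and 0 lower, with a median difference of 1.17. The 9-cis-epoxycarotenoid dioxygenases (NCED) cleave carotenoids in the step that limits ABA synthesis. *NCED9* gave 8.35, 8.21 and 8.45 in NaCl and 4.96, 4.96 and 4.74 in MS, a difference of 3.45 (SE 0.15, limma adjusted p = 1.09e-08). *NCED5* rose by 3.43 (SE 0.32), with 2 of 3 MS arrays well above background, and *NCED2* by 3.27 (SE 0.55). *NCED3*, the family member best known from drought in leaves, gave 9.37, 9.23 and 9.5 in NaCl and 7.92, 7.81 and 7.86 in MS. Its rise of 1.5 (SE 0.17) was the smallest of the 4 NCED genes called. Further along the pathway, the aldehyde oxidase gene *AAO3* rose by 1.63 (SE 0.18) and the zeaxanthin epoxidase gene *ABA1* by 1.45 (SE 0.12), whereas *ABA2* (0.28) was not called. The ABA 8'-hydroxylases of the CYP707A family, which inactivate the hormone, were all called higher, although *CYP707A4* overlapped between the groups and lost its call without NaCl replicate 2 (0.79), NaCl replicate 3 (0.94) or MS replicate 2 (0.87). *CYP707A1* gave 11.81, 12.12 and 12.10 in NaCl and 9.18, 9.01 and 9.15 in MS, a difference of 2.90 (SE 0.12), and *CYP707A2*, *CYP707A3* and *CYP707A4* rose by 1.17, 2.11 and 1.04. *CYP707A2* and *CYP707A4* were not called with array weights per group.

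In ABA signaling, 13 of 34 genes tested were called higher and 2 lower, and the levels of the pathway did not move alike. Only receptor genes were among those called lower. *RCAR3* (*PYL8*) gave 11.86, 11.52 and 11.43 in NaCl and 13.18, 13.29 and 13.18 in MS, and fell by 1.61 (SE 0.11). *RCAR1* (*PYL9*) fell by 1.07 (SE 0.10). No receptor gene was called higher. The phosphatases 2C, which oppose the signal, were among the genes with the largest rises. *AHG1* gave 11.42, 11.15 and 11.52 in NaCl and 7.04, 6.91 and 6.72 in MS, a difference of 4.47 (SE 0.29, limma adjusted p = 2.27e-07). *HAI3* rose by 8.60 (SE 0.44), with 1 of 3 MS arrays well above background. *HAI2* rose by 3.99 (SE 0.81, but not called with array weights per group), *HAI1* by 3.51 (SE 0.55) and *ABI2* by 2.11 (SE 0.17). *ABI1*, by contrast, had a difference of 0.87 (SE 0.17) and was not called, but reached 1.02 and was called without replicate 1 in NaCl.

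Of the kinases, *SNRK2.7* rose by 3.5 (SE 0.20), and the main ABA-activated kinase genes *SNRK2.2* (-0.14), *SNRK2.3* (-0.69) and *OST1* (*SNRK2.6*, 0.34) were not called. The transcription factors of seeds stood out from those of vegetative tissue. *ABI5* gave 13.49, 13.83 and 14.09 in NaCl and 9.15, 8.96 and 9.10 in MS, and rose by 4.73 (SE 0.20, limma adjusted p = 8.93e-09). *ABI3* gave 11.66, 11.93 and 12.28 in NaCl and 4.07, 4.29 and 4.29 in MS, with 2 of 3 MS arrays well above background, and its difference was 7.74 (SE 0.25). *ABI4* was at least 189-fold higher with NaCl. *ABF1* (0.03), *ABF2* (-0.33), *ABF3* (0.63) and *ABF4* (0.32), the related factors of vegetative tissue, were not called. The genes of ABI5-binding repressors *AFP1*, *AFP2* and *AFP3* rose by 3.21, 2.12 and 2.32. Without replicate 1 in NaCl, 14 genes of this list were called higher and 4 lower.

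Of 26 regulators and targets of drought, cold and salt signaling, 18 were called higher and 1 lower, with a median difference of 1.92. *LTI78* (*RD29A*), a standard marker of osmotic stress, gave 15.60, 16.18 and 16.15 in NaCl and 10.98, 10.73 and 11.38 in MS, a difference of 4.94 (SE 0.31, limma adjusted p = 1.8e-07). *DREB2A*, a factor of the ABA-independent branch, gave 13.64, 14.12 and 13.95 in NaCl and 9.40, 9.31 and 9.51 in MS, a difference of 4.50 (SE 0.16). The dehydrin gene *LTI30* rose by 4.65 (SE 0.10), *COR15A* by 4.63 (SE 0.85) and *CBF2*, whose probe may share signal with *CBF1* and *CBF3*, by 4.96 (SE 0.83). *COR15B*, the close relative of *COR15A*, was the gene called lower. It gave 10.24, 9.73 and 9.59 in NaCl and 11.75, 11.04 and 11.28 in MS, and fell by 1.5 (SE 0.22). The salt difference of *COR15B* in the transgenic line minus that in the wild type was -2.47. The gene was not called with the factorial test named in the methods. The salt term of that test averages both lines, so that it cannot decide on the fall in the transgenic line. Among the genes not called were *RD20* (0.83), *RD22* (0.95) and *COR47* (0.55), of which *RD22* was called without NaCl replicate 1 (1.04) or MS replicate 3 (1.04).

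Heat shock genes were higher with salt for 12 of 19 tested and lower for 0, with a median difference of 2.54. They were 9 small heat shock proteins, which hold unfolding proteins in solution, together with *HSA32* (1.44) and the factors *HSFA2* (1.24, but 0.96 and not called without NaCl replicate 2) and *HSFA9*. *HSFA9*, the heat stress factor of seeds, gave 7.19, 7.31 and 7.31 in NaCl and 4.90, 4.6 and 4.70 in MS, a difference of 2.54 (SE 0.16) that was 0.95 and not called after normexp background correction. AT2G29500, a small heat shock protein gene on the list, rose by 4.36 (SE 0.11), and *HSP23.6-MITO* was at least 13.1-fold higher. The large chaperone gene *HSP101* averaged 10.05 ± 0.57 in NaCl and 10.08 ± 0.08 in MS (SD, n = 3 each). These arrays overlapped, and the difference was -0.03 (SE 0.21). Of the antioxidant enzymes, 7 of 17 genes were higher and 3 lower. The copper/zinc superoxide dismutases *CSD1* and *CSD2* rose by 3.01 (SE 0.13) and 2.78 (SE 0.12), *CAT2* by 2.34 (SE 0.16), and *PER1*, the peroxiredoxin of seeds, by 12.91 (SE 0.94) with 1 of 3 MS arrays well above background. *TAPX*, the ascorbate peroxidase of the thylakoid, gave 9.54, 9.42 and 9.34 in NaCl and 13.00, 12.76 and 12.62 in MS, and fell by 3.36 (SE 0.11).

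For compatible solutes, 7 of 18 genes were higher and 2 lower. *P5CS1*, the enzyme that commits glutamate to proline, gave 12.14, 13.18 and 12.83 in NaCl and 11.47, 11.56 and 11.66 in MS. All NaCl arrays were above the MS arrays, and the difference was 1.15 (SE 0.33, limma adjusted p = 0.0106). Without NaCl replicate 2 it was 0.92 and not called, nor was it called with array weights per group. *ALDH12A1* (*P5CDH*), which breaks proline down, rose by 1.83 (SE 0.13). Of the raffinose family, *STS* rose by 2.12 (SE 0.19), *RS5* by 1.52 (SE 0.17) and *GolS2* by 1.47 (SE 0.30). The myo-inositol phosphate synthases *MIPS1* and *MIPS3* fell by 2.00 (SE 0.18) and 2.4 (SE 0.08), while *MIPS2* (0.72) was not called.

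In the transport of sodium and potassium, 5 of 21 genes were called higher and 4 lower, with a median difference of -0.04. *NHX3*, a vacuolar cation antiporter, gave 10.32, 10.65 and 10.93 in NaCl and 6.25, 6.06 and 6.13 in MS, a difference of 4.49 (SE 0.21, limma adjusted p = 2.11e-08). The high-affinity potassium transporter gene *HAK5* gave 12.27, 12.23 and 12.59 in NaCl and 7.23, 8.63 and 10.61 in MS, a rise of 3.54 (SE 0.64) with MS arrays far apart. *HKT1* retrieves sodium from the xylem and *SKOR* loads potassium into it, and both were lower with salt. *SKOR* gave 4.65, 4.89 and 5.43 in NaCl and 9.24, 9.16 and 8.87 in MS, and fell by 4.1 (SE 0.19), and *HKT1* also fell by 4.1 (SE 0.19), with 2 of 3 NaCl arrays well above background. *SLAH1* was at least 74-fold lower. The SOS pathway exports sodium from the cell. *SOS3* rose by 1.63 (SE 0.12), while *SOS1* (0.51) and *SOS2* (0.01) were not called, nor was the vacuolar antiporter gene *NHX1* (-0.83).

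Of the 21 aquaporin genes, 4 were higher and 9 lower. The rises were led by *TIP3;1* and *BETA-TIP* (*TIP3;2*), the water channels of protein storage vacuoles in seeds. *TIP3;1* gave 16.09, 16.19 and 16.42 in NaCl and 6.99, 7.28 and 6.78 in MS, a difference of 9.22 (SE 0.21). Among the vegetative tonoplast channels, *DELTA-TIP* (*TIP2;1*) fell by 2.31 (SE 0.11), *TIP2;3* by 2.35 (SE 0.43) and *GAMMA-TIP* (*TIP1;1*) by 1.16 (SE 0.15), the last of them not called without NaCl replicate 1 (-0.98). *PIP2E* (*PIP2;6*) gave 15.40, 15.17 and 14.82 in NaCl and 17.29, 17.34 and 17.37 in MS, and fell by 2.2 (SE 0.12).

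**Figure D3:**
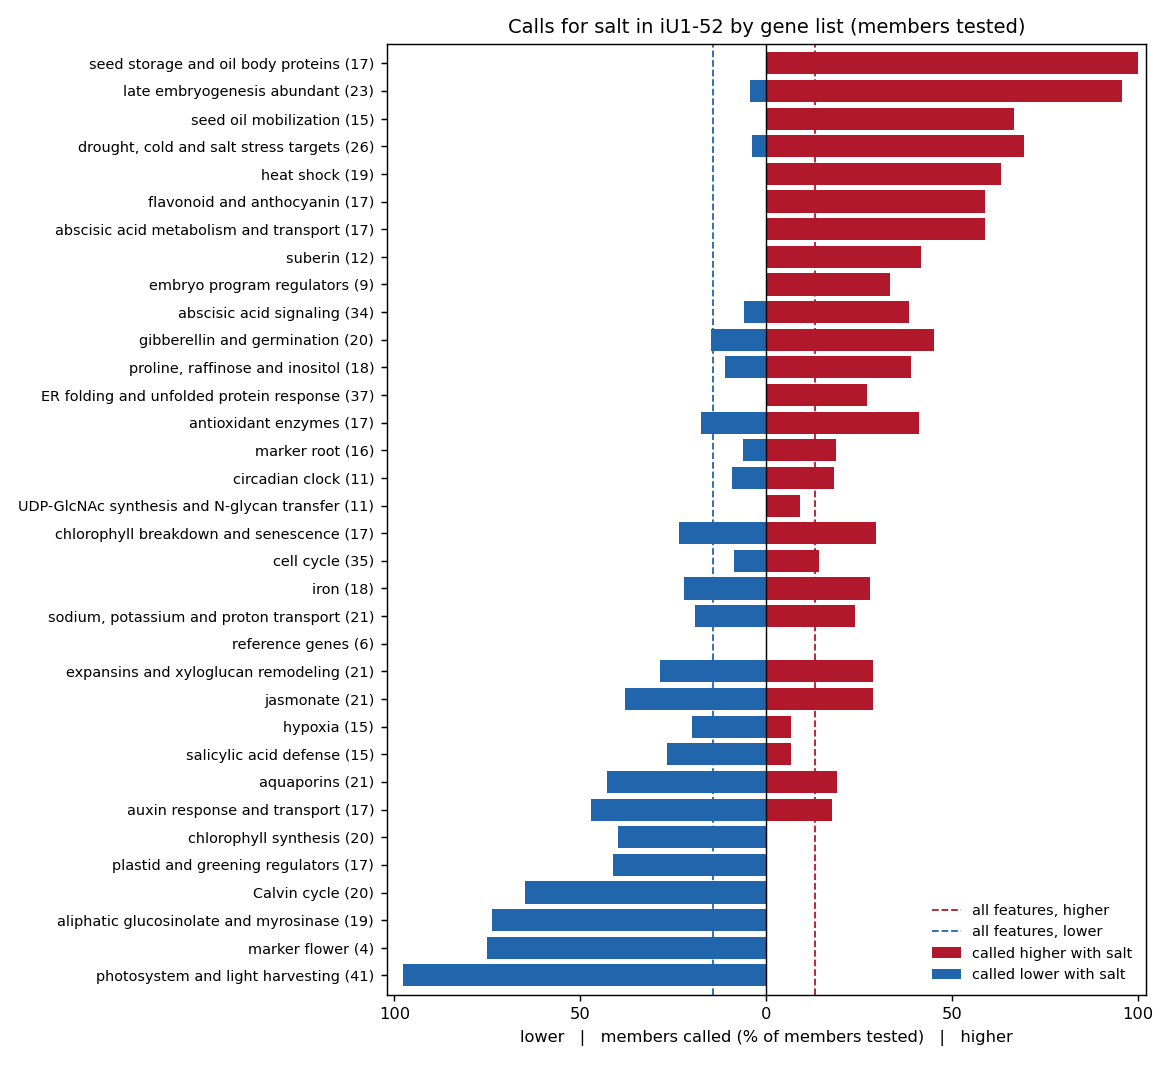
Share of the tested members of each gene list (y axis, members tested in brackets) that were called higher (red, to the right) or lower (blue, to the left) with salt in iU1-52, in percent. Dashed lines are the shares of all features, 13.1% higher and 14.4% lower. Seed storage and LEA genes are at the top and photosystem genes at the bottom.

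Photosynthesis genes fell together. Of 41 nuclear genes for photosystem subunits and light-harvesting proteins, 40 were called lower with salt and 0 higher, with a median difference of -2.81. The list mean was 14.19, 13.94 and 13.68 in NaCl and 16.71, 16.58 and 16.57 in MS. Among the light-harvesting genes, *LHCB2.3* gave 6.35, 7.07 and 6.21 in NaCl and 11.73, 11.57 and 11.30 in MS, and fell by 4.99 (SE 0.22, limma adjusted p = 1.3e-08). *LHB1B1* (*LHCB1.4*) fell by 4.28 (SE 0.34) and *LHCB4.2* by 4.1 (SE 0.23). Of the photosystem I subunits, *PSAH2* fell by 3.67 (SE 0.23), and *PSAD-2* gave 12.95, 12.75 and 12.63 in NaCl and 16.44, 16.30 and 16.23 in MS. The smallest falls called were those of *CAB3* (*LHCB1.2*, -1.21) and *NPQ4* (*PSBS*, -1.21), the photoprotective subunit of photosystem II. The member not called was *LHCB4.3*, with 12.20, 12.06 and 11.99 in NaCl and 12.06, 12.07 and 12.98 in MS, which overlapped. Members of the LHCB1 group are near-identical in sequence, and signal shared between their probes was not tested. The count of 40 was the same without replicate 1 in NaCl.

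The Calvin cycle was lower for 13 of 20 genes and higher for 0, with a median difference of -1.39. With the mean of a gene's probes in place of the brightest probe, 16 genes were called lower. *CP12-2*, a redox switch of the cycle, gave 9.44, 8.66 and 8.23 in NaCl and 14.25, 14.06 and 14.10 in MS, and fell by 5.36 (SE 0.25, limma adjusted p = 1.72e-08). Its target *PRK*, phosphoribulokinase, gave 11.36, 11.11 and 11.13 in NaCl and 14.94, 14.70 and 14.78 in MS, a fall of 3.60 (SE 0.10). Rubisco activase (*RCA*) fell by 2.98 (SE 0.09) and *SBPASE* by 2.28 (SE 0.08). None of the 4 small subunit genes of Rubisco tested was called, and near-identical members of this family may share signal. *RBCS1A* averaged 18.27 ± 0.07 in NaCl and 18.44 ± 0.03 in MS (SD, n = 3 each), a difference of -0.17. Over the alternatives this difference ranged from -0.56 to -0.13.

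In chlorophyll synthesis, 8 of 20 genes were called lower and 0 higher, and 7 of those called act from magnesium chelatase onward. *GUN4*, the activator of magnesium chelatase, gave 10.56, 10.81 and 10.66 in NaCl and 13.42, 13.23 and 13.17 in MS, and fell by 2.6 (SE 0.10). The chelatase subunit gene *GUN5* (*CHLH*) fell by 2.05 (SE 0.12), *CRD1* by 1.98 (SE 0.09), and the protochlorophyllide reductases *PORB* and *POR C* by 1.90 (SE 0.09) and 2.06 (SE 0.14). *HEMA1*, at the entry of the pathway, fell by 1.01 (SE 0.07), and its call was lost without NaCl replicate 3 (-0.95) or MS replicate 3 (-0.98). The early steps *HEMB1* (-0.29), *HEMC* (0.20) and *GSA1* (0.02) were not called. Of the regulators of greening and plastid transcription, 7 of 17 were lower and 0 higher. They were *PIF4* (-2.38), *GPRI1* (*GLK1*, -1.55) and 5 sigma factor genes, which serve the plastid RNA polymerase, from *SIG2* (-1.21) to *SIG3* (-1.47). The light signaling factor *HY5* (0.82) and the phytochromes *PHYA* (0.83) and *PHYB* (0.86) were not called. Without replicate 1 in NaCl, 2 genes of this list were called higher, *PHYA* (1.02) and *PHYB* (1.07).

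The senescence genes did not move as a group, with 5 of 17 called higher and 4 lower. *NYE1*, the magnesium dechelatase that starts chlorophyll breakdown, gave 13.65, 13.04 and 13.30 in NaCl and 11.41, 11.20 and 11.35 in MS, and rose by 2.01 (SE 0.17). *SAG29* (*SWEET15*), a sugar transporter that also feeds embryos, rose by 3.81 (SE 1.06), but was not called with array weights per group. The senescence factor gene *NAP* gave 10.56, 11.37 and 10.93 in NaCl and 13.39, 13.50 and 13.23 in MS, a fall of 2.42 (SE 0.19), and the dark-induced genes *SEN1* and *DIN10* fell by 1.83 (SE 0.28) and 2.01 (SE 0.27).

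**Figure D4:**
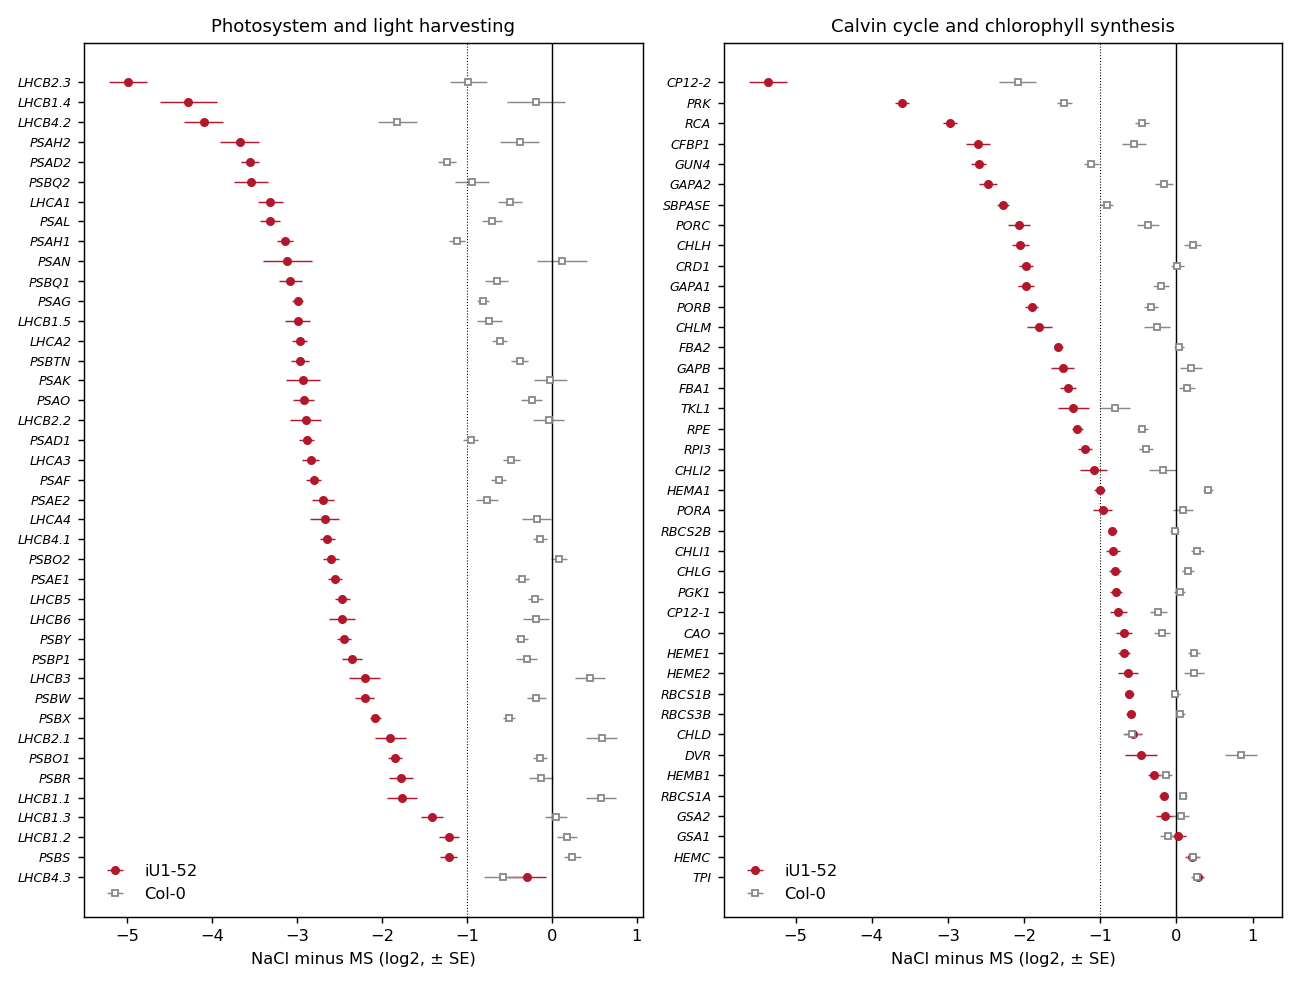
Salt difference (x axis, NaCl minus MS, log2, bars ± SE) in iU1-52 (red circles) and in Col-0 (grey squares) for each gene (y axis) of the photosystem and light-harvesting list (left) and of the Calvin cycle and chlorophyll synthesis lists (right). The dotted line marks 2-fold lower. In the left panel 40 of 41 genes of iU1-52 and 3 of Col-0 were called lower.

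The 10 largest falls among genes measured on all 6 arrays included 4 genes that plants express when phosphate is scarce. They came out of a ranking by size and were recognized as phosphate genes after their values were seen. *PEPC1* (AT1G17710), a phosphatase of phosphoethanolamine and phosphocholine, gave 6.85, 5.75 and 5.56 in NaCl and 13.65, 14.04 and 14.82 in MS, and fell by 8.11 (SE 0.38, limma adjusted p = 2.12e-08). *IPS1* (AT3G09922), a non-coding RNA that sequesters a microRNA, gave 4.58, 4.77 and 4.24 in NaCl and 11.73, 12.04 and 12.74 in MS, a fall of 7.64 (SE 0.23). *MGDC*, a galactolipid synthase gene, fell by 7.34 (SE 0.46), and *SPX3* by 6.56 (SE 0.31). In each of the 4 genes, replicate 3 in MS had the highest and replicate 1 in MS the lowest of the MS values. The remaining genes of the ranking were AT1G67860 (-8.80), *FBA5* (-7.85), *ESM1* (-7.46), *SAUR63* (-7.20), AT3G05730 (-7.07) and AT1G23130 (-6.87).

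*ESM1*, an epithiospecifier modifier, acts in the breakdown of glucosinolates, the sulfur-rich defense compounds of Brassicaceae, and it gave 9.61, 8.32 and 8.29 in NaCl and 16.38, 15.96 and 16.25 in MS. The fall was not limited to it. In the list for aliphatic glucosinolate synthesis and myrosinases, 14 of 19 genes were called lower and 0 higher, with a median difference of -1.67. *TGG2*, a myrosinase, gave 11.21, 10.99 and 11.38 in NaCl and 15.01, 15.20 and 15.24 in MS, and fell by 3.95 (SE 0.12, limma adjusted p = 1.34e-09). *MYB28*, the factor that drives the aliphatic branch, gave 7.73, 7.68 and 7.76 in NaCl and 10.84, 10.58 and 10.67 in MS, a fall of 2.98 (SE 0.11). *CYP79F1*, which starts the core structure, fell by 3.33 (SE 0.21) and *TGG1* by 2.42 (SE 0.17).

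Salicylic acid defense genes were higher for 1 of 15 and lower for 4. *PR1*, the marker of this pathway, was well above background on 0 of 3 NaCl arrays, against 7.14, 8.69 and 9.07 in MS, so that it was at least 22.3-fold lower with salt. *PR5* fell by 2.41 (SE 0.21) and *WRKY70* by 2.23 (SE 0.16), while *EDS1* (-0.12), *PAD4* (-0.04) and *ICS1* (0.65) were not called. Of 21 jasmonate genes, 6 were higher and 8 lower. Among the repressors, *JAZ10* gave 12.12, 12.42 and 11.86 in NaCl and 9.28, 9.81 and 9.91 in MS, a rise of 2.47 (SE 0.21), and *JAZ7* rose by 2.36 (SE 0.33). The synthesis gene *LOX2* gave 13.23, 14.60 and 13.60 in NaCl and 15.94, 15.94 and 16.08 in MS, and fell by 2.18 (SE 0.31). The storage proteins *VSP1* and *VSP2* fell by 1.84 (SE 0.22) and 1.83 (SE 0.20).

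Genes of ER folding and the unfolded protein response were raised in part. Of 37 genes tested, 10 were called higher and 0 lower, with a median difference of 0.72, and without replicate 1 in NaCl 13 were called higher. *NAC089* gave 14.29 on all 3 NaCl arrays and 11.94, 11.97 and 11.87 in MS, a difference of 2.37 (SE 0.09, limma adjusted p = 4.95e-09). *ATERDJ3A* (*TMS1*), a co-chaperone, gave 11.03, 11.75 and 11.79 in NaCl and 9.21, 8.96 and 9.38 in MS, and rose by 2.34 (SE 0.20). *NAC103* rose by 2.2 (SE 0.14), the bZIP factor gene *BZIP60* by 1.76 (SE 0.13), *ERO1*, which reoxidizes disulfide isomerases, by 1.77 (SE 0.14) and *PDIL1-1* by 1.63 (SE 0.10). Most lumenal chaperones and lectins were not called. *BIP2* gave 15.19, 15.94 and 15.93 in NaCl and 14.87, 14.73 and 14.90 in MS, with replicate 1 the lowest of the NaCl arrays, and its difference of 0.86 (SE 0.17) was not called. Without replicate 1 the difference was 1.11 for *BIP2* and 1.01 for *BIP1*, and both were then called, although near-identical *BIP1* and *BIP2* may share signal. With all arrays, *BIP1* (0.79), *CNX1* (0.80) and *CRT1a* (*CRT1*, 0.87) were not called either. *BIP3*, the stress-inducible BiP gene, gave 10.15, 11.42 and 11.41 in NaCl and 12.06, 11.18 and 11.16 in MS, which overlapped.

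Of 11 genes tested for UDP-GlcNAc synthesis and N-glycan transfer, 1 was called higher and 0 lower. It was *GFAT* (*GFAT1*), the entry enzyme of the hexosamine pathway, which gave 9.90, 10.03 and 9.96 in NaCl and 8.74, 8.73 and 8.86 in MS, a difference of 1.19 (SE 0.07, limma adjusted p = 1.22e-07). The next steps were not called, with 0.10 for *GNA1* and 0.55 for *DRT101*. The catalytic subunits of the oligosaccharyltransferase had differences of 0.03 (*STT3A*) and 0.23 (*STT3B*).

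Genes of oil use were higher for 10 of 15 tested and lower for 0, with a median difference of 1.79. Apart from *MLS*, isocitrate lyase (*ICL*), the other enzyme specific to the glyoxylate cycle, gave 18.40, 18.37 and 18.36 in NaCl and 14.87, 14.93 and 14.89 in MS, a difference of 3.48 (SE 0.07, limma adjusted p = 8.82e-11). Over the alternatives the difference of *ICL* ranged from 3.35 to 5.01. *PCK1*, which leads on to sugar, rose by 2.35 (SE 0.09), and the peroxisomal genes *MFP2* and *KAT2* by 2.89 and 2.37. The lipase gene *SDP1* was not called (0.25), whereas its relative *SDP1-LIKE* rose by 3.1 (SE 0.12). Among genes of gibberellin and germination, 9 of 20 were higher and 3 lower. *SOM*, a zinc finger repressor of germination, gave 12.50, 13.03 and 13.15 in NaCl and 4.58, 4.62 and 4.21 in MS, with 2 of 3 MS arrays well above background, and rose by 8.42 (SE 0.25). The DELLA repressors *RGL2* and *RGL3* rose by 3.51 (SE 0.18) and 2.86 (SE 0.13), and the DELLA gene *GAI* fell by 1.07. The synthesis gene *GA20OX3* also rose, by 5.75 (SE 0.18), and *GASA6*, a gibberellin-responsive gene, gave 10.68, 10.68 and 10.01 in NaCl and 14.93, 14.88 and 14.37 in MS, a fall of 4.27 (SE 0.19).

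In the auxin, cell cycle and cell wall lists the calls went both ways. Of 17 auxin genes, 3 were higher and 8 lower. *IAA6* gave 4.40, 4.22 and 4.91 in NaCl and 9.39, 9.58 and 9.22 in MS, a fall of 4.88 (SE 0.35), *IAA19* fell by 1.81 (SE 0.20), and the conjugating enzyme gene *GH3.3* rose by 2.74 (SE 0.45). Of 35 cell cycle genes, 5 were higher (14.3%, or 3 genes after normexp correction) and 3 lower (8.57%). The shares of all features were 13.1% and 14.4%. Among the called genes were *CYCD2;1* (1.87, SE 0.16) and the inhibitor gene *ICK1* (*KRP1*, -1.57, SE 0.13). The B-type cyclins, which mark dividing cells, were not called, with *CYCB1;1* at 0.37. Expansins and xyloglucan enzymes, which loosen cell walls, were higher for 6 of 21 and lower for 6. *EXPA2*, an expansin gene of germinating seeds, rose by 6.96 (SE 0.15) with 2 of 3 MS arrays well above background, and *EXPA5* fell by 2.45 (SE 0.17).

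Flavonoid genes were higher for 10 of 17 and lower for 0. Chalcone synthase (*TT4*), the first enzyme, gave 14.56, 14.64 and 14.90 in NaCl and 10.82, 11.22 and 12.23 in MS, a rise of 3.27 (SE 0.28). *DFR*, of the anthocyanin branch, gave 11.35, 11.17 and 11.52 in NaCl and 6.16, 6.38 and 9.22 in MS. Its rise of 4.1 (SE 0.94) was not called with array weights per group. Suberin genes were higher for 5 of 12 and lower for 0, among them *FAR1* (2.13, SE 0.14) and *MYB41* (1.80, SE 0.17). Iron genes were higher for 5 of 18 and lower for 4. The higher count was 3 when NaCl replicate 1, NaCl replicate 3, MS replicate 2 or MS replicate 3 was left out. The ferritin gene *FER2*, expressed in seeds, gave 14.72, 14.18 and 14.50 in NaCl and 8.69, 8.82 and 8.98 in MS, a rise of 5.63 (SE 0.23), and the reductase gene *FRO2* rose by 3.19 (SE 0.37). Of 15 hypoxia genes, 1 was higher (2 without NaCl replicate 2) and 3 lower, with *SUS4* falling by 3.98 (SE 0.20), and *ADH1* (0.36) was not called. Of 11 clock genes, *CCA1* (1.54) and *LHY* (1.21) were higher and *GI* (-1.58) was lower, with 2 genes lower without NaCl replicate 3 and *LHY* at 0.66 and not called after normexp correction, and the time of harvest within the day is not in the labels.

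Markers of tissues were examined for the whole seedling. Of 16 root genes, 3 were called higher (18.8%) and 1 lower (6.25%), against 13.1% and 14.4% of all features. The list mean was 10.64 to 10.76 in NaCl and 10.48 to 10.61 in MS. *PLT1*, of the root meristem, fell by 1.61 (SE 0.13), with a difference of -0.96 and no call after normexp correction, and *CASP4*, of the endodermis, rose by 1.53 (SE 0.17). Flower organ genes were expressed on the MS plates. *SEP3* was well above background on 0 of 3 NaCl arrays, against 10.2, 10.08 and 9.57 in MS, and was at least 69.8-fold lower with salt. *AP3* gave 3.98, 4.54 and 4.26 in NaCl and 8.80, 8.59 and 6.98 in MS. In all, 3 of 4 flower genes were called lower. None of the 6 reference genes was called, with differences from -0.25 for *UBC21* to 0.48 for AT5G60390 (*EF1A*). The part of seed, green and flower tissue in the other differences was not tested.

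The response was then set against that of Col-0, measured on separate arrays. In Col-0, 2626 features were called higher with salt (11.1%) and 2874 lower (12.1%). Of the 3102 features higher in iU1-52, 2076 were also called higher in Col-0, and of the 3403 lower ones, 2134 were also called lower. The difference between the responses was tested as the interaction, which is the response of iU1-52 minus that of Col-0. It was called positive for 1012 features (4.27%) and negative for 1249 (5.27%). Of the features higher in iU1-52, 716 had a positive interaction and 48 a negative one. Of those lower in iU1-52, 1000 had a negative interaction and 60 a positive one. Without replicate 1 of iU1-52 in NaCl, 1545 interactions were positive and 1669 negative.

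**Figure D5:**
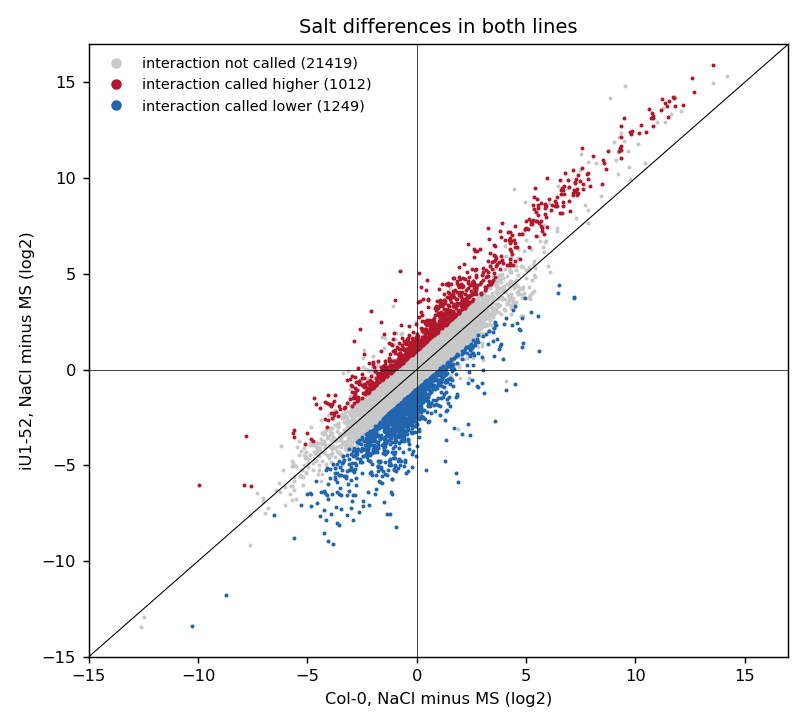
Salt difference of each of the 23680 features in iU1-52 (y axis, log2) and in Col-0 (x axis, log2), which come from separate arrays. Red points are the 1012 features with an interaction called higher, blue points the 1249 called lower, and the diagonal marks equal responses.

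For photosystem genes the line difference was nearly general. The interaction was negative and called for 40 of 41 genes. The median salt difference was -2.81 in iU1-52 and -0.35 in Col-0, where 3 genes were called lower. The list mean of the Col-0 arrays was 16.21 to 16.29 in NaCl and 16.53 to 16.67 in MS. *LHCB2.3* had an interaction of -4.01 (SE 0.31, limma adjusted p = 2.08e-05) and *GUN5* one of -2.26 (SE 0.16), its salt difference in Col-0 being 0.21. Calvin cycle genes had a negative interaction in 10 of 20 cases, or 14 with the mean of a gene's probes, and the chlorophyll synthesis genes in 10 of 20. Of the 17 greening regulators, 0 had a called interaction in either direction, and with 1 replicate left out at most 1 was called in each direction. *PIF4* fell by 2.38 in iU1-52 and by 1.84 in Col-0.

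The seed genes were high with salt in both lines and higher in iU1-52. All 17 storage and oil body genes were also called higher in Col-0, and 13 had a positive interaction, or 8 with array weights per group. The median difference was 12.28 in iU1-52 and 9.81 in Col-0, with genes below background in MS in both. The list mean of the Col-0 arrays with NaCl was 12.20, 13.77 and 13.27, below all 3 iU1-52 arrays with NaCl. LEA genes had a positive interaction in 14 of 23 cases and a negative one in 1. For these genes replicate 1 of Col-0 in MS had a list mean of 6.30, above the 4.97 and 5.01 of the other replicates, and the interaction is taken against all 3. *ABI5* had an interaction of 2.51 (SE 0.28, limma adjusted p = 0.000159). *ICL* had a salt difference of 3.48 in iU1-52 and 3.44 in Col-0, and an interaction of 0.04 (SE 0.10).

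Several stress genes responded in iU1-52 beyond their response in Col-0. Of 26 regulators and targets of drought, cold and salt signaling, 8 had a positive interaction, 1 a negative one (*COR15B*, -2.47) and 17 none that was called. Of 17 ABA metabolism genes, 5 had a positive interaction, 1 a negative one and 11 none that was called. Over all features, 4.27% were positive and 5.27% negative. *NCED3* had a salt difference of 1.5 in iU1-52 and -0.09 in Col-0, and an interaction of 1.59 (SE 0.24, limma adjusted p = 0.000867). *LTI78* rose by 4.94 in iU1-52 and by 2.72 in Col-0 and had an interaction of 2.23 (SE 0.44). Heat shock genes had a positive interaction in 11 of 19 cases, but in 6 with no filter on dim probes and in 7 with array weights. The ER list had 6 positive interactions and 1 negative one among 37 genes, with 9 positive ones without replicate 1 of iU1-52 in NaCl and 3 without replicate 3 of iU1-52 in NaCl. *BIP1* had an interaction of 1.01 (SE 0.21) and *SHD*, the ER member of the HSP90 family, of 1.04 (SE 0.12), while for *BZIP60* (0.12) and *ERO1* (0.25) it was not called. The call of *BIP1* was lost when any 1 of 5 arrays was left out, with the lowest value of 0.89 without NaCl replicate 3 of iU1-52, and that of *SHD* without NaCl replicate 3 (0.98) or MS replicate 2 (0.99) of iU1-52. The negative one was *BIP3* (-1.90, SE 0.62), which rose in Col-0 by 1.43, and its call was lost with the slide as a block and when any 1 of 8 arrays was left out, among them replicate 1 of iU1-52 in MS (-1.60).

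A few features were called in opposite directions, 10 higher in iU1-52 and lower in Col-0, and 23 lower in iU1-52 and higher in Col-0. *HSP21*, a small heat shock protein of the chloroplast, gave 7.22, 7.47 and 8.68 in NaCl and 4.68, 5.09 and 4.48 in MS in iU1-52, a rise of 3.04, and fell by 2.08 in Col-0, where 2 of 3 NaCl arrays were well above background. *LOX2* and *AOC2*, which both act in jasmonate synthesis, fell in iU1-52 by 2.18 and 1.18 and rose in Col-0 by 1.33 (SE 0.31) and 1.35 (SE 0.27). Their interactions were -3.51 (SE 0.44) and -2.52 (SE 0.38), and the fall of *AOC2* was not called without MS replicate 3 of iU1-52 (-0.93). With the factorial test named in the methods, the salt calls of these 3 genes in iU1-52 were lost. The salt term of that test averages both lines, and opposite responses cancel in it. It therefore cannot decide on the response of iU1-52. The 3 genes were chosen from the 33 after their values were seen.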

How the data were processed

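RNA of whole seedlings was hybridized to 12 single-colour Agilent Arabidopsis 4x44K arrays, 3 for each of 4 groups. The methods describe 3 biological replicates and state that labelled products were pooled before hybridization. How many seedlings each array represents is not given in the sources used here. The deposited files hold Cy3 intensity per spot, which per the file headers Feature Extraction 10.7.1.1 had background-corrected, with flags for outlier spots and spots well above background.

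From these, outlier spots were left out, spots of a probe were averaged, probes under 100 on all arrays were removed (31498 of 43603 kept), and the arrays were quantile normalized and put on the log2 scale. Probes were matched to genes by RefSeq accession (78.8% matched, TAIR10.1 names), and a gene was represented by its brightest probe, which gave 23680 features, 20282 of them matched. limma 3.58.1 in R 4.3.3 was fitted to all 12 arrays with a mean per group, with Benjamini-Hochberg adjustment over all features. The number of arrays limits the precision. Scripts were tested on simulated data.

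The members and the gene lists were chosen with earlier results of these data known. The named genes were the 10 largest rises and falls measured on all 6 arrays, the 5 largest lower bounds and the 5 largest interactions in each direction, up to 4 called members of each list in each direction, members given as not called, the targeted genes and the reference genes. Other list members were named to describe their list, after their values were seen. Alternatives concerned the scaling, background correction (normexp, run on median pixel signals), dim-probe filter, arrays fitted, array weights, replicate block, probes of a gene, call rule, the 2-way ANOVA of the methods and leaving out each array. Deviations of arrays with the same replicate number correlated at -0.01, 0.08 and -0.05 between NaCl and MS of iU1-52, 0.10, 0.01 and 0.21 between the lines in NaCl, and 0.14, 0.07 and 0.11 between the lines in MS. Not all of these were above 0.1, and the samples were not treated as paired.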

Additional observations from a re-analysis of the deposited data

Results flagged for a closer look

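The response to salt differed between the lines, as tested by the interaction, for 1012 features in the positive and 1249 in the negative direction. Among features also called for salt in iU1-52 and well above background on all 12 arrays, the largest positive interactions (log2, iU1-52 minus Col-0) were those of *LCR67*, a plant defensin gene (3.53), AT2G05580 (3.47), AT1G08170 (3.43), AT3G15280 (3.27) and *OPT5*, of the oligopeptide transporter family (3.12). The largest negative ones were those of *FBA5*, a fructose-bisphosphate aldolase (-4.93), AT5G48490 (-4.89), AT3G05730 (-4.87), *ESM1* (-4.82) and *BBX17*, a B-box zinc finger gene (-4.57). *FBA5* and AT3G05730 are also among the features in which replicate 1 of iU1-52 in NaCl lay above the mean of the other replicates, by 2.16 and 2.51.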

How the results depend on the processing

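Some alternatives were chosen after seeing the data: those for Col-0 and for calls in both lines, and the lists without NaCl replicate 1. With adjusted p alone, 16098 features were called in iU1-52 (8392 higher, 7706 lower), 16337 in Col-0 (8045 higher, 8292 lower) and 6807 for the interaction (3463 higher, 3344 lower). Leaving out 1 array at a time gave 6368 to 6623 calls in iU1-52 (3037 to 3169 higher, 3331 to 3466 lower), 5414 to 5550 in Col-0 and 2004 to 3214 for the interaction (870 to 1545 higher, 1134 to 1669 lower). The lowest count of higher interactions, 870, came without Col-0 NaCl replicate 1 and the highest, 1545, without iU1-52 NaCl replicate 1. With the replicate number as a block, 6507 features were called in iU1-52 (3101 higher, 3406 lower) and 2252 for the interaction. Normexp correction gave 2545 higher and 2802 lower in iU1-52, and no filter 3777 and 4159. Features higher in iU1-52 and lower in Col-0 numbered 0 with normexp and 1 with the ANOVA, against 10, and those with the opposite pattern 12 and 5, against 23. The salt term of the ANOVA averages both lines, and opposite responses cancel in it, so that its counts do not test these features. The cause of the change with normexp was not tested. Among single genes, 21 of 232 salt differences and 36 of 119 interactions lost their call at least once, and none reversed. The 232 salt differences include genes that were not called to begin with, such as *PKL* (-0.13), and these had no call to lose. The 119 interactions were all called to begin with. The share of salt calls lost is therefore understated and cannot be compared with that of the interactions.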

Other observations

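Replicate 1 of iU1-52 in NaCl lay more than 1 log2 unit below both other replicates for 487 features and above both for 371. By the same measure replicate 2 stood apart for 108 features and replicate 3 for 77. The genes given next were chosen after their values were seen. AT2G43150 gave 13.13, 15.86 and 15.94 in iU1-52 with NaCl and 15.93, 16.07 and 16.04 in iU1-52 in MS, and its Col-0 arrays with NaCl gave 13.04, 13.37 and 13.26. Its replicate 1 was thus near the Col-0 arrays with NaCl, and the other replicates were near the MS arrays. AT1G02190 (-2.68), AT3G28550 (-2.54) and *EXT6*, an extensin gene of the cell wall (-2.19), also had replicate 1 far below the mean of the others. *AOX1B*, an alternative oxidase gene of mitochondria, had replicate 1 above that mean by 2.56 and *AL3* by 2.28, but replicates 2 and 3 of both genes also lay apart. *AOX1B* gave 8.73, 5.15 and 7.18 in NaCl. *AL3* gave 11.63, 8.29 and 10.42 in NaCl and 11.31, 11.37 and 11.27 in MS, so that its replicate 1 was the one near the MS arrays.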
